A study of Homo sapiens with 9 samples.

Results

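Gene expression in DU145 cells that expressed the first of the study's *FZD6* hairpins, *FZD6* shRNA1, was compared with that in DU145 cells that expressed a scrambled shRNA. The comparison used 6 of the 9 RNA-seq libraries of the series, 3 with the scrambled shRNA and 3 with shRNA1, and the libraries of the other hairpin were left out. DU145 cells come from a human prostate cancer and are an established line. Every library is labelled as wild-type DU145. The study's methods describe lentiviral vectors for constitutive and for doxycycline-inducible expression of the shRNAs, and the sources used here do not state which was in the sequenced cells. No drug, dose or time point is given in the labels. The replicates of each group are labelled as triplicates without saying whether they came from separate cultures, so the p-values measure only the spread between these libraries.

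*FZD6* encodes a Frizzled receptor, a seven-pass membrane protein that binds Wnt ligands. Frizzled receptors signal through β-catenin and T-cell factors or through noncanonical branches such as planar cell polarity, which orients cells through small GTPases and the actin cytoskeleton, and FZD6 is best known for the latter. A short hairpin RNA is cut into a guide strand that directs the silencing complex to a fully paired transcript, and its seed, the bases near the 5′ end, can also pair with other transcripts, mostly in 3′ untranslated regions (UTRs). The comparison asks how the transcriptome of DU145 cells differed when *FZD6* was lowered with a hairpin aimed at the 3′ UTR.

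The hairpin numbered 1 in the study's list was taken as shRNA1 by its number. Its 21-base target is found in the human build GRCh38 at chromosome 8, positions 103332352 to 103332372 (plus strand), within exon 7 of 7 of the *FZD6* transcript ENST00000358755.4. It covers positions 843 to 863 of a 3′ UTR of 1350 bases, downstream of the stop codon, while the gene itself spans 103298494 to 103332866. The target occurs 1 time in that UTR.

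*FZD6* was lower in every shRNA1 library than in any control library. Its level was 20.9, 20.5 and 20 FPKM in the scramble libraries and 9.47, 10.2 and 9.80 FPKM in the shRNA1 libraries, where FPKM are sequenced fragments scaled by transcript length and library size, summed here over all transcripts of a gene. The means were 20.5 ± 0.441 and 9.83 ± 0.376 FPKM (mean ± s.d., n = 3), a fall of 52.1% in FPKM. On the log2(FPKM + 1) scale, used for all fold changes below, *FZD6* fell by 0.99 ± 0.0324 (± standard error; Benjamini-Hochberg adjusted p = 0.000658, limma). A two-sided exact permutation test on *FZD6* alone gave p = 0.1, the smallest value that 20 arrangements of 3 against 3 libraries can give. Both transcripts that carried most of the signal were lower. The coding transcript NM_003506 was listed at 9.68, 15.1 and 15 FPKM in the controls and at 6.49, 6.28 and 8.24 FPKM with shRNA1. The noncoding transcript NR_133921 was listed at 5.45, 5.33 and 4.6 FPKM in the controls and at 2.97, 2.32 and 1.41 FPKM with shRNA1.

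**Figure D1:**
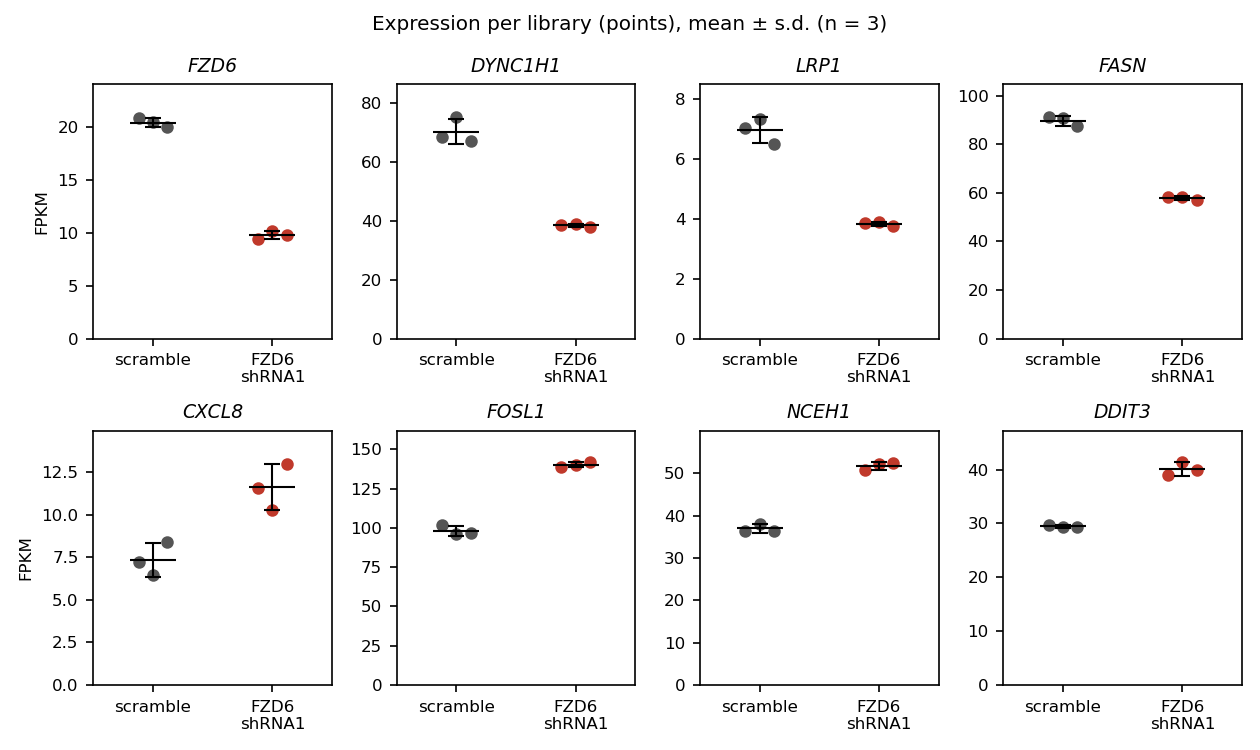
FPKM (vertical axes from 0) of *FZD6*, 3 other genes that fell and 4 genes that rose, in the 3 scramble and the 3 *FZD6* shRNA1 libraries. Points are libraries, long dashes the means and error bars the s.d. (n = 3). Only genes without overlap between the groups were chosen, so all shRNA1 points lie on one side of all scramble points.

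Beyond *FZD6*, changes were many and small. Of 12470 genes that averaged at least 1 FPKM, limma called 3592 (28.8%) at an adjusted p under 0.05. With shRNA1, 2265 genes were higher (18.2%) and 1327 were lower (10.6%). The median size of a called change was 0.17 on the log2 scale. Only 515 of the called genes changed by at least 1.2-fold on this scale of log2(FPKM + 1), 233 higher and 282 lower. Just 12 changed by at least 2-fold on it, and none of these has a protein-coding RefSeq accession. The added 1 makes these changes smaller than the ratios of FPKM, most of all in genes at low FPKM. In FPKM, the shRNA1 mean was 0.479 of the control mean for *FZD6* and 2.03 times it for *DMC1*, both coding genes. Among genes with a protein-coding accession, 2 rose and 9 fell by at least 1.5-fold on the log2(FPKM + 1) scale. More fell by that much in FPKM, such as *LAMA5* and *FN1*, at 0.661 and 0.618 of their control means. The study's own criteria ask for a 1.2-fold change with an unadjusted p below 0.01, and they selected 451 genes (3.62%), 185 higher (1.48%) and 266 lower (2.13%), and limma called all 451. In 5860 genes (47%) the 3 shRNA1 libraries all lay on one side of the 3 scramble libraries, among them all 3592 called genes. The call count was 2316, 2160 and 2030 without shRNA1 replicate 1, 2 and 3, and 1700 genes were called whichever library was left out. The balance of directions depended on the scaling, since quantile normalization gave 1321 genes higher and 1596 lower.

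**Figure D2:**
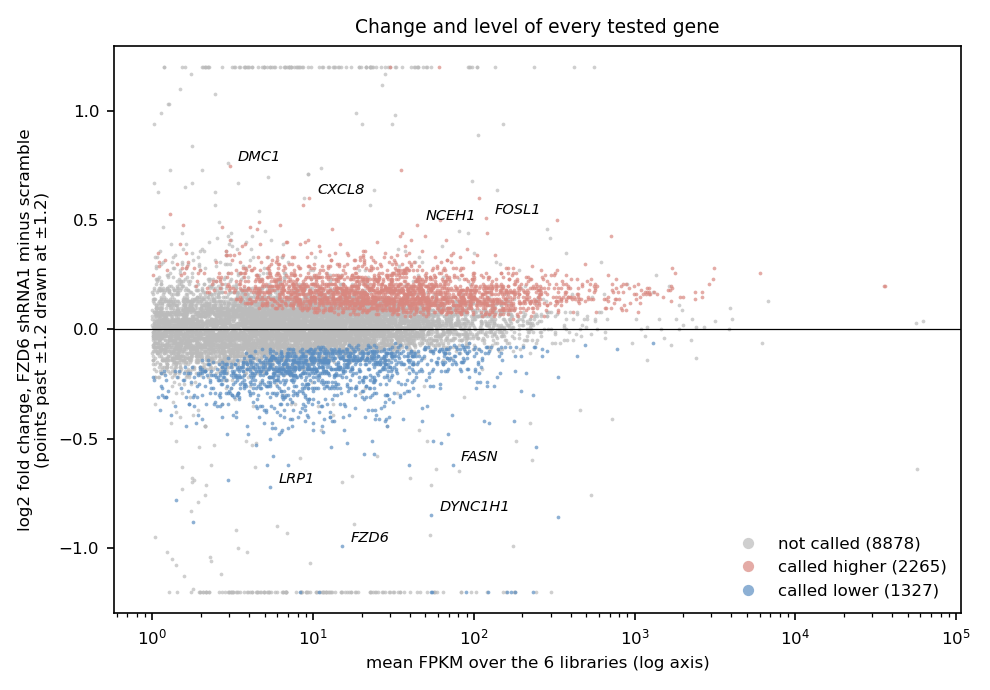
Log2 fold change of shRNA1 against scramble (vertical axis) and mean FPKM over the 6 libraries (horizontal log axis) for all 12470 tested genes. Most called genes lie within 0.5 of 0; 257 genes past ±1.2 are drawn at the edge, of which 12 were called.

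The groups differed in transcript length as well. Across the 12060 tested genes with an annotated length, longer transcripts had lower fold changes, with a Spearman rho of −0.459 across genes, which are not independent replicates. Among the 2412 genes with the shortest transcripts, of 54 to 1460 bases, 777 were called higher and 24 lower, and the median log2 fold change was 0.12. Among the 2412 with the longest, from 4705 to 27601 bases, 84 were called higher and 771 lower, and the median was −0.07. The relation was present in each shRNA1 library set against the scramble mean, with rho of −0.418, −0.408 and −0.447. Control libraries also differed from each other in this respect: set against the mean of the other scramble libraries, replicates 1, 2 and 3 gave rho of −0.124, 0.34 and −0.229. Transcript length and the hairpin cannot be told apart in the groups as sequenced, so counts in the gene groups are also given after a length trend was removed from every library by lowess (length correction). After this removal 2262 of 12060 genes (18.8%) were called, 1129 higher (9.36%) and 1133 lower (9.39%). Of the 3592 original calls, 1714 kept call and direction, 883 higher and 831 lower, and 2 were called in the opposite direction.

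**Figure D3:**
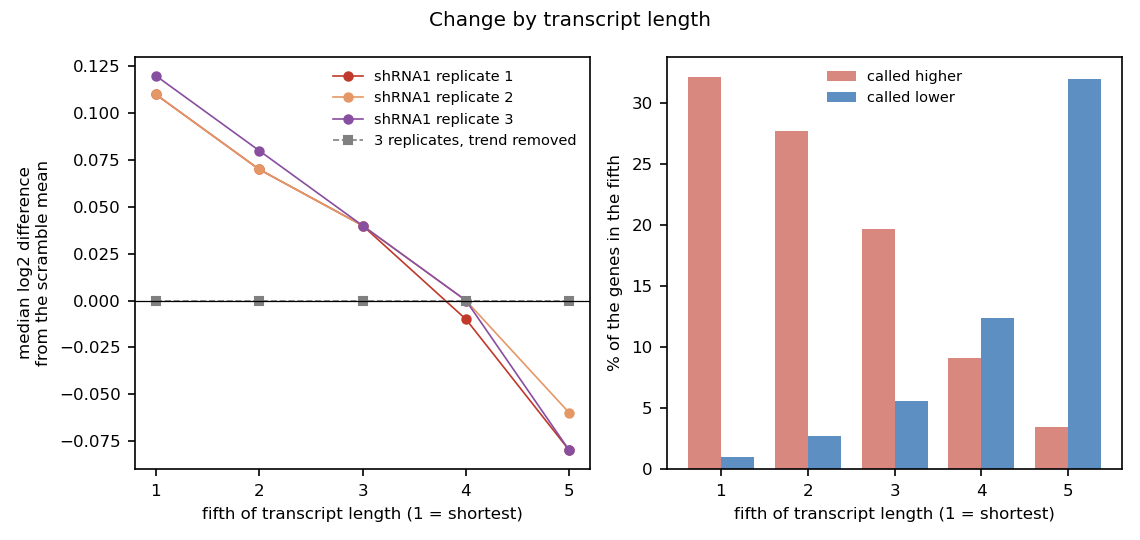
Left, median log2 difference of each shRNA1 library from the scramble mean in 5 bins of transcript length (2412 genes each, shortest first), with the median after removal of the length trend in gray. Right, percentage of each bin called higher or lower: the share called higher falls from 32.2% to 3.48% and the share called lower rises from 0.995% to 32%.

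After *FZD6*, the largest falls were in genes with long transcripts. *DYNC1H1*, the heavy chain of the cytoplasmic dynein motor (chromosome 14, 101964573 to 102056443), was at 68.7, 75.3 and 67.1 FPKM in the controls and at 38.5, 39.1 and 37.9 FPKM with shRNA1. Its log2 fold change was −0.85 (adjusted p = 0.00144, limma). *LRP1*, a large endocytic receptor (chromosome 12, 57128483 to 57213361), was at 7.05, 7.35 and 6.49 FPKM in the controls and at 3.86, 3.88 and 3.75 FPKM with shRNA1, a log2 fold change of −0.72. No shRNA1 library reached the lowest control library in either gene, since the largest falls and rises were chosen among genes without overlap. *SYNE1* and *SYNE2* encode nesprins, which tie the nucleus to the cytoskeleton, and fell by 0.69 and 0.62 on the log2 scale. *FASN*, the fatty acid synthase (chromosome 17, 82078338 to 82098236), was at 91.0, 90.6 and 87.4 FPKM in the controls and at 58.2, 58.4 and 57.0 FPKM with shRNA1. Its log2 fold change was −0.62 (adjusted p = 0.000715, limma).

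The other large falls kept to the same size. The scaffold gene *AHNAK2* and the phospholipid flippase gene *ATP11A* each fell by 0.62 on the log2 scale. The ubiquitin ligases *HERC2* and *HUWE1* fell by 0.58 and 0.57. The laminin chain *LAMA5* fell by 0.57, and *IGF2R*, the receptor that carries lysosomal enzymes and IGF2, by 0.54. The transcription factor *ZFHX3* fell by 0.53, the cytolinker *DST* by 0.52 and the proliferation marker *MKI67* by 0.52. The 14 genes that followed *FZD6* have transcripts of at least 8565 bases, against 3666 bases for *FZD6*. Their falls were smaller with the length trend removed and all 14 stayed called: *DYNC1H1* was at −0.57, *LRP1* at −0.49, *FASN* at −0.50, *SYNE1* at −0.36 and *DST* at −0.27. The log2 fold change of *FZD6* remained −0.99.

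Several of the largest rises were in genes of inflammatory and stress signaling. *CXCL8*, which encodes the neutrophil chemokine interleukin-8 (chromosome 4, 73740569 to 73743716), was at 7.23, 6.44 and 8.39 FPKM in the controls and at 11.6, 10.3 and 13 FPKM with shRNA1. Its log2 fold change was 0.60 (adjusted p = 0.013, limma, with a standard error of 0.11). *FOSL1*, the AP-1 subunit FRA1 (chromosome 11, 65892049 to 65900545), was at 102, 96.1 and 96.8 FPKM in the controls and at 139, 140 and 142 FPKM with shRNA1, a log2 fold change of 0.51. The libraries of *FOSL1* within each group lay close together, whereas those of *CXCL8* spread over a wider range without overlapping. *IL11*, an interleukin-6 family cytokine, was at 11.5, 10.5 and 10.7 FPKM in the controls and at 15.1, 15.8 and 15.3 FPKM with shRNA1, a log2 fold change of 0.46. *NCEH1*, a cholesterol ester hydrolase (chromosome 3, 172630249 to 172711067), was at 36.4, 38.1 and 36.4 FPKM in the controls and at 50.7, 52.2 and 52.4 FPKM with shRNA1. It rose by 0.48 on the log2 scale. *NCEH1* has a transcript of 4287 bases, and its change was 0.49 with the length trend removed.

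Regulators of the translational stress response rose too. *DDIT3*, the transcription factor CHOP (chromosome 12, 57516588 to 57520517), was at 29.8, 29.3 and 29.3 FPKM in the controls and at 39.0, 41.5 and 39.9 FPKM with shRNA1, a log2 fold change of 0.43. *PPP1R15A*, the phosphatase subunit GADD34 that reverses the phosphorylation of eIF2α, was at 31.2, 29.2 and 30.1 FPKM in the controls and at 41.4, 41.1 and 41.0 FPKM with shRNA1, a log2 fold change of 0.44. In both, every shRNA1 library was above every control library. *TNFAIP3*, the NF-κB inhibitor A20, rose by 0.41, the ERK phosphatase gene *DUSP5* by 0.40 and the G protein regulator *RGS2* by 0.40. *UPP1*, the uridine phosphorylase, rose by 0.44. The other rises of the set were *ZNF585A* at 0.46, *CCNB1IP1* at 0.41, *LIAS*, the lipoic acid synthetase, at 0.41, and *HSD17B10*, a mitochondrial dehydrogenase, at 0.41. *DMC1*, the meiotic recombinase, had the highest value, 0.75 (adjusted p = 0.0171, limma), at 1.57, 2.19 and 2.22 FPKM in the controls and 4.02, 3.20 and 4.94 FPKM with shRNA1. Its call was lost without shRNA1 replicate 1 (adjusted p = 0.0578). All 15 rises were still called after length correction, with *CXCL8* at 0.51, *FOSL1* at 0.42, *IL11* at 0.41, *PPP1R15A* at 0.39 and *DDIT3* at 0.31.

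**Figure D4:**
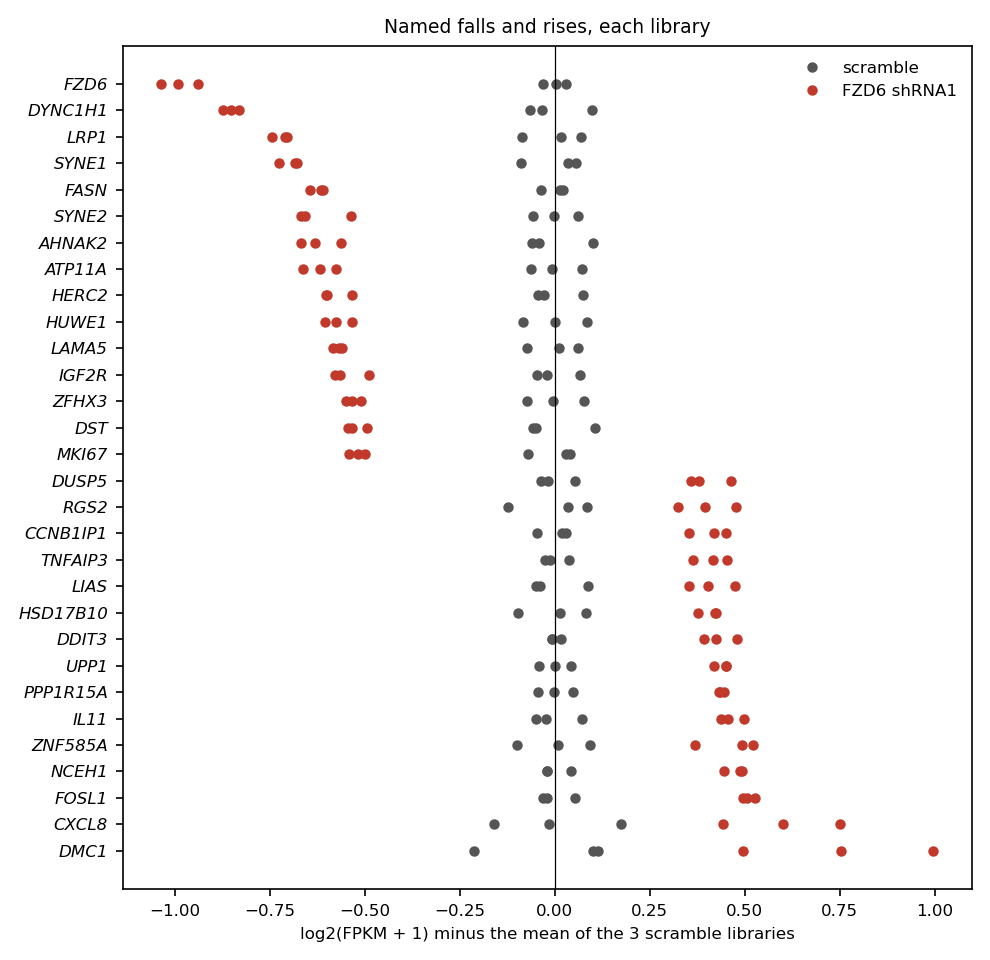
The 15 largest falls, *FZD6* among them, and the 15 largest rises among called protein-coding genes with at least 3 FPKM in the higher group. Points are libraries, placed by log2(FPKM + 1) minus the mean of the 3 scramble libraries (horizontal axis). Only genes without overlap between the groups were chosen, so every shRNA1 point lies outside the range of the scramble points.

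Counts in the gene groups below stand beside shares over all tested genes of 18.2% called higher and 10.6% lower. After length correction these shares were 9.36% and 9.39%. Among the receptors of the Wnt pathway, 5 of 12 tested members were called lower and none higher. Besides *FZD6*, these were the coreceptors *LRP6* and *LRP5*, the R-spondin receptor *LGR4* and *FZD2*. *LRP6* was at 4.41, 4.83 and 4.46 FPKM in the controls and at 3.57, 3.6 and 3.43 FPKM with shRNA1, a log2 fold change of −0.30 (adjusted p = 0.00583, limma). *FZD2* was at 10.2, 10.2 and 10.3 FPKM in the controls and at 8.89, 8.82 and 9.18 FPKM with shRNA1, a log2 fold change of −0.18. The groups did not overlap in either gene. *LGR4* was at −0.18 and *LRP5* at −0.13. The median of the 12 members was −0.11, against 0.03 over all tested genes, and the same 5 genes were called lower with the length trend removed, at a median of −0.09. The remaining members were not called. *FZD5* and *FZD7* were at −0.12 and −0.11, *PTK7* at −0.10, *ROR1* at −0.07, *FZD1* and *ZNRF3* at −0.04 each, and *RYK*, the only positive value, at 0.07. The other 9 members, including *FZD3* and *FZD4*, were under 1 FPKM on average.

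In the β-catenin pathway 9 of 24 tested core components were called lower and 1 higher. The latter was *CTNNB1*, β-catenin itself, at 69.1, 69.2 and 69.3 FPKM in the controls and 72.1, 73.7 and 73.2 FPKM with shRNA1, a log2 fold change of 0.08 (adjusted p = 0.0191, limma). The *CTNNB1* call was lost without shRNA1 replicate 2 or 3 (largest adjusted p = 0.0607) and with quantile normalization. The destruction complex scaffold *APC* and the corepressor *TLE3* were each at −0.20, and both calls were lost on leaving out any 1 library other than scramble replicate 3. The lower calls in the group fell to 0 without shRNA1 replicate 2, to 2 without shRNA1 replicate 1 or 3 and to 4 without scramble replicate 1, 2 or 3. Removal of the length trend left 3 members lower and 1 higher.

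Of 20 canonical Wnt target genes 8 were tested, and 4 of these were called higher and none lower, at a median of 0.11. *DKK1*, which encodes a secreted inhibitor of the LRP coreceptors, was at 33.7, 34.8 and 35.1 FPKM in the controls and at 44.6, 44.1 and 44.4 FPKM with shRNA1. Its log2 fold change was 0.35 (adjusted p = 0.00154, limma), and 0.28 with the length trend removed. *CD44*, a hyaluronan receptor, rose by 0.14 and *CCND1*, cyclin D1, by 0.13. *MYC* was at 0.18 (adjusted p = 0.0326, limma), a call that was lost without scramble replicate 2 or 3 or any shRNA1 replicate (largest adjusted p = 0.099) and with the length trend removed.

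In the planar cell polarity group 8 of 27 tested members were called lower (29.6%) and 2 higher (7.41%), at a median of −0.06. Over all tested genes 10.6% were called lower and 18.2% higher. The flamingo cadherin *CELSR2* was at 3.53, 3.67 and 3.45 FPKM in the controls and at 2.37, 2.21 and 2.24 FPKM with shRNA1, a log2 fold change of −0.48 (adjusted p = 0.00232, limma). *CELSR1* was at −0.37, and the kinases *ROCK2* and *ROCK1*, which act on myosin, were at −0.23 and −0.20. The lower calls were 4 without shRNA1 replicate 2 or 3, and 5 without scramble replicate 1 or shRNA1 replicate 1. Length correction gave 3 of 27 members lower, near the 9.39% of all genes, and 1 higher, against 9.36% of all genes. *CELSR2* was then at −0.31, *CELSR1* at −0.20 and *ROCK2* at −0.10, whereas *ROCK1* was at −0.05 and no longer called.

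Genes of the basement membrane and its receptors had the lowest median of all 32 groups, −0.17, with 17 of 28 tested members called lower and none higher. *LAMA5* was at 25, 25.9 and 23.5 FPKM in the controls and at 16.4, 16.5 and 16.2 FPKM with shRNA1. *LAMB2*, another laminin chain, was at 31.8, 32.9 and 31.3 FPKM in the controls and at 23.7, 23.3 and 23.7 FPKM with shRNA1, a log2 fold change of −0.42 (adjusted p = 0.00144, limma). Each control library exceeded each shRNA1 library in both laminins. *COL12A1*, a fibril-associated collagen, and *FN1*, fibronectin, fell by 0.41 and 0.39 on the log2 scale. Other members called lower were the laminins *LAMA1*, *LAMB1* and *LAMC1*, the type IV collagens *COL4A1* and *COL4A2* and the integrin subunit *ITGB4*. The group held 15 lower and 2 higher members with the length trend removed, at a median of −0.13.

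Among genes of actomyosin and focal adhesions, 19 of 36 tested members were called lower and 8 higher, at a median of −0.09. The lower ones included spectrin (*SPTAN1*, −0.48), utrophin (*UTRN*, −0.47) and nonmuscle myosin heavy chain IIA (*MYH9*, −0.42), together with the filamins, talin and both α-actinins. *MYH9* was at 208, 203 and 195 FPKM in the controls and at 151, 151 and 150 FPKM with shRNA1. The higher ones included the myosin light chains *MYL6*, *MYL12A* and *MYL12B*, profilin (*PFN1*) and the tropomyosins *TPM3* and *TPM4*. When single libraries were left out the higher calls were 2 to 5, fewest without shRNA1 replicate 3, and the lower calls 16 to 18. None of the 8 stayed called higher with the length trend removed or with quantile normalization, while 18 members were lower in the former and 20 in the latter.

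In the adherens junction and desmosome group 11 of 28 tested members were called lower and 3 higher, at a median of −0.08. No member was called higher without shRNA1 replicate 2 or 3, and 1 without scramble replicate 2 or 3. *DSP*, the desmosomal plaque protein desmoplakin, was at 8.18, 9.18 and 8.60 FPKM in the controls and at 6.07, 6.29 and 6.01 FPKM with shRNA1, a log2 fold change of −0.44 (adjusted p = 0.003, limma). *EVPL*, envoplakin, was at −0.34, *JUP*, plakoglobin, at −0.26 and *AFDN*, afadin, at −0.24. *JUP* has a transcript of 3444 bases and was at −0.27 with the length trend removed, when 10 members of the group were lower and 2 higher.

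Many chromatin regulators fell. Among histone-modifying enzymes 23 of 58 tested members were called lower and 5 higher, at a median of −0.08. The H3K4 methyltransferase gene *KMT2D* was at 6.49, 6.95 and 6.12 FPKM in the controls and at 4.19, 4.40 and 4.35 FPKM with shRNA1, a log2 fold change of −0.50 (adjusted p = 0.00273, limma). *KMT2A*, its paralog, was at 4.73, 5.04 and 4.50 FPKM in the controls and at 3.12, 3.28 and 3.01 FPKM with shRNA1, a log2 fold change of −0.48. In neither did the groups overlap. *KMT2C* and *ASH1L*, which methylate histone H3 as well, were at −0.43 and −0.41, and the acetyltransferases *EP300* and *CREBBP* at −0.41 and −0.32. The demethylase *KDM5B* fell from 7.26 ± 0.131 to 5.95 ± 0.154 FPKM (n = 3), a log2 fold change of −0.25 (adjusted p = 0.00379, limma). That of *KDM5B* was −0.09 with the length trend removed, when it was no longer called (adjusted p = 0.0734, limma). The 5 higher members were the arginine methyltransferases *PRMT5* and *PRMT1*, the deacetylase *SIRT6* and the polycomb subunits *EZH2* and *EED*, of which 3 remained higher without scramble replicate 3 or any shRNA1 replicate. The length-corrected values of *KMT2D* and *KMT2A* were −0.23 and −0.25, both still called, and 13 members of the group were lower and 3 higher.

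The remodelers that move nucleosomes were also lower in larger number than higher. *ARID1A*, a subunit of the BAF complex, was at 15.1, 14.9 and 14.1 FPKM in the controls and at 11, 10.9 and 10.8 FPKM with shRNA1. Its log2 fold change was −0.40 (adjusted p = 0.00226, limma), and −0.27 with the length trend removed. *EP400*, *BPTF* and *CHD3*, ATPase or scaffold subunits of other remodeling complexes, were at −0.43, −0.38 and −0.36. In all 18 of 50 tested members were called lower and 7 higher, the latter including the AAA+ ATPase gene *RUVBL1* and the actin-related *ACTL6A*. After removal of the length trend 13 were lower, all among the first 18, and 6 higher, 3 of them among the first 7.

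In double-strand break repair 14 of 59 tested members were called higher and 5 lower, at a median of 0.06. *H2AX*, the histone variant phosphorylated at breaks, was at 80.1, 76.7 and 78.6 FPKM in the controls and at 103, 99.5 and 103 FPKM with shRNA1, a log2 fold change of 0.37 (adjusted p = 0.00167, limma). It was higher in all 3 shRNA1 libraries than in any control library. *PRKDC*, the catalytic subunit of DNA-PK in end joining, was at 25.9, 29.7 and 26.5 FPKM in the controls and at 18.3, 19.9 and 18.4 FPKM with shRNA1, a log2 fold change of −0.51 (adjusted p = 0.00403, limma). The other members called lower were *SLX4*, *MDC1*, *TP53BP1* and *PARP1*, and the first 3 of these calls were lost without scramble replicate 2 or any shRNA1 replicate. These counts lay near the shares over all tested genes, of which 18.2% were higher and 10.6% lower, against 23.7% and 8.47% in the group. With the length trend removed 13 of 58 members were higher and 2 lower, *H2AX* being at 0.28 and *PRKDC* at −0.30. The share called higher was then above the 9.36% of all genes, and the share called lower was below their 9.39%.

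In excision and mismatch repair 16 of 55 tested members were called higher and none lower, at a median of 0.08. *GTF2H1*, a TFIIH subunit, rose by 0.24 and *CCNH*, cyclin H, by 0.23. *XPC*, the damage sensor of nucleotide excision repair, was at 7.89, 7.94 and 7.42 FPKM in the controls and at 7.83, 8.28 and 8.04 FPKM with shRNA1. The *XPC* groups overlapped (log2 fold change 0.05, adjusted p = 0.326, limma). *ENDOV*, an endonuclease for inosine, was at 10.8, 9.86 and 11.3 FPKM in the controls and at 10.8, 11.5 and 12.8 FPKM with shRNA1, which overlapped as well (0.12, adjusted p = 0.244, limma). The higher calls were 8 without shRNA1 replicate 2 or 3 and 9 without shRNA1 replicate 1. After removal of the length trend 9 members were higher, 5 of them among the 16, and none lower.

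DNA replication genes were higher in 27 of 54 tested members and lower in 2, at a median of 0.12. The clamp loader subunits *RFC4* and *RFC2* rose by 0.27 and 0.24 and the polymerase subunit *POLE2* by 0.22, and members of the MCM helicase were among the others. The 2 lower members were the catalytic polymerase subunits *POLE* and *POLD1*, the latter not called without shRNA1 replicate 2 or 3. *POLE* was at 9.64, 10.3 and 9.23 FPKM in the controls and at 8.15, 8.23 and 8.12 FPKM with shRNA1, a log2 fold change of −0.23 (adjusted p = 0.0116, limma), and −0.11 with the length trend removed. After that removal 14 members were higher and 2 lower.

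Mitotic cell cycle genes were called in both directions. Of 57 tested members 16 were called higher and 8 lower at a median of 0.05, whereas quantile normalization gave 3 higher and 8 lower and removal of the length trend 6 in each direction. Without shRNA1 replicate 2 or 3 only 7 were called higher, and 5 and 6 lower. *MKI67* was at 75.3, 74.7 and 69.7 FPKM in the controls and at 50.8, 51.5 and 50 FPKM with shRNA1, and the kinetochore protein gene *CENPF* was at −0.41; length correction brought their log2 fold changes to −0.34 and −0.25, from −0.52 for *MKI67*, and both stayed called. The mitotic kinase gene *AURKB* rose by 0.23. *WEE1*, the inhibitory kinase of CDK1, was at 8.24, 8.90 and 8.02 FPKM in the controls and at 8.44, 7.95 and 7.82 FPKM with shRNA1, which overlapped (−0.05, adjusted p = 0.457, limma). Of 32 replication-dependent histone genes tested, *H4C15* at 0.33 and *H3C10* at 0.13 were called higher. The *H3C10* call was lost without any scramble replicate or shRNA1 replicate 2 (largest adjusted p = 0.0695).

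Outputs of growth factor signaling mostly rose. Of 22 tested outputs of ERK and AP-1, 14 were called higher and 2 lower, at a median of 0.17. *ATF3*, a stress-induced transcription factor, was at 9.55, 9.60 and 9.43 FPKM in the controls and at 12.8, 12.5 and 12.2 FPKM with shRNA1, a log2 fold change of 0.36 (adjusted p = 0.00193, limma). *ETV4*, an ETS factor induced by ERK, was at 0.35. The 2 lower members were *SPRED2* and *FOSL2*. These counts were 11 and 2 with the length trend removed, and 12 and 3 with quantile normalization. Among 9 expressed interleukins and chemokines 6 were called higher, *CXCL8*, *IL11*, *CXCL2*, *CXCL1*, *LIF* and *IL32*, and *CSF1* was called lower, at a median of 0.26. Of the 6, 4 remained higher without shRNA1 replicate 1 or 3 and 5 without any other library. Without the length trend 3 were higher and 1 was lower.

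Receptors and other signaling genes went both ways. Over all tested genes 18.2% were called higher and 10.6% lower. In the group of EGFR, MET and their ligands 5 of 14 tested members were called higher and 2 lower, and 3 higher without shRNA1 replicate 1 or 2; after length correction 3 were higher and 2 lower. *AREG*, amphiregulin, was at 0.23 and lost its call after length correction (0.13, adjusted p = 0.0512, limma), whereas the receptor genes *IGF1R* and *ERBB2* fell by 0.32 and 0.23. *MET* was at 0.23 (adjusted p = 0.0146, limma), a call lost without shRNA1 replicate 1 or 2 (largest adjusted p = 0.0552). In the SRC and STAT3 group 5 of 27 were called lower (18.5%) and 1 higher (3.7%), the cytokine signaling inhibitor *SOCS2* at 0.35. The lower calls of that group were 1 to 3 when any 1 library was left out, fewest without shRNA1 replicate 3, and 4 after length correction, when 2 members were higher. Of 25 YAP and TEAD target genes 8 were called higher (32%), led by *ANKRD1* at 0.38, and 7 lower (28%), led by *TEAD1* at −0.27. These became 5 and 3 without shRNA1 replicate 3 and 6 and 4 without shRNA1 replicate 2, and 4 and 4 after length correction. Of 23 p53 target genes 7 were called higher, led by *PLK2* at 0.30 and *AEN* at 0.29, and none lower; DU145 is known to carry mutant p53. The p53 targets called higher numbered 4 with the length trend removed.

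The integrated stress response, which couples translation to amino acid supply, had 10 of 28 tested members called higher and 1 lower, at a median of 0.07. Next to *DDIT3* and *ATF3* these included *SLC3A2*, the heavy chain of amino acid transporters, at 0.28 and *ATF4*, the central transcription factor of the response, at 0.19. *ATF4* was at 369, 351 and 366 FPKM in the controls and at 408, 406 and 422 FPKM with shRNA1. After removal of the length trend 8 members were higher and none lower. The aminoacyl-tRNA synthetases, many of which are ATF4 targets, were called higher in 14 of 20 and lower in 1, at a median of 0.13, with 12 higher and 1 lower after removal of the length trend and 8 higher and 2 lower with quantile normalization. Without shRNA1 replicate 2 the higher calls were 9. *FARSB* and *KARS1* rose by 0.26 and 0.20. Unfolded protein and heat shock genes were called higher in 6 of 32 (18.8%), near the 18.2% of all tested genes. They were called lower in 6 (18.8%), against 10.6% of all tested genes. When any 1 library was left out 3 or 4 were higher and 1 to 5 lower, with 1 lower without shRNA1 replicate 3. That group had 2 higher and 8 lower members after length correction and 1 higher and 11 lower with quantile normalization.

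Nearly all ribosomal protein genes rose, by small amounts. Of 78 tested cytosolic ribosomal protein genes 74 were called higher and none lower, at a median of 0.18. *RPL24* was at 454, 420 and 450 FPKM in the controls and at 549, 529 and 550 FPKM with shRNA1, a log2 fold change of 0.30 (adjusted p = 0.00448, limma). Mitochondrial ribosomal proteins were called higher in 60 of 77, led by *MRPS30* at 0.34, respiratory chain subunits in 54 of 75, led by *ATP5PO* at 0.29, and proteasome subunits in 25 of 33, led by *PSMD13* at 0.22, with none lower in any of the 3 groups. These are short transcripts, with a median length of 816 bases for cytosolic ribosomal proteins and of 911 bases for respiratory chain subunits. After removal of the length trend 28, 31, 13 and 7 were called higher, and 2 respiratory chain subunits were called lower. Quantile normalization gave 24, 45, 25 and 9 higher, with 2 respiratory chain and 2 proteasome subunits lower. Respiratory chain calls were 35 without shRNA1 replicate 3, and proteasome calls 13 without shRNA1 replicate 2 or 3. Reads of ribosomal protein genes can be shared with their processed pseudogenes, so single values are uncertain.

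Lipid synthesis genes were among those that fell. Besides *FASN*, 9 of 26 tested genes of cholesterol synthesis and its control were called lower and none higher, at a median of −0.05. *HMGCS1*, which makes the first dedicated intermediate, was at 41.4, 44.6 and 44.8 FPKM in the controls and at 36.3, 35.9 and 34.8 FPKM with shRNA1, a log2 fold change of −0.28 (adjusted p = 0.00474, limma). *LSS* was at −0.17 and *MVD* at −0.15. The sterol regulators *SREBF1* and *SREBF2* were called lower as well, at −0.14 and −0.13, but the first call was lost without scramble replicate 2 or shRNA1 replicate 3 and the second without scramble replicate 1 or 2 or shRNA1 replicate 1 or 2 (largest adjusted p = 0.0525 and 0.0725). The group has ordinary lengths, with a median of 2628 bases, and 9 members were called lower with the length trend removed, 7 of them among the first 9.

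Of 29 glycolysis and hypoxia genes 3 were called higher and 2 lower, and none higher without scramble replicate 1 or shRNA1 replicate 1 or 3. Length correction gave 2 higher and 3 lower in that group, and quantile normalization 1 higher and 8 lower. Of 21 NRF2 targets 5 were higher and 3 lower, but 1 higher and 6 lower with the length trend removed, and 3 higher without shRNA1 replicate 2 or 3. Interferon-stimulated genes, which double-stranded RNA can induce, were called lower in 1 of 24 tested members, *OAS3* at −0.20, and higher in none. After length correction 1 was higher and 2 lower, *OAS3* not among them. Genes of microRNA processing and silencing were lower in part, with 8 of 14 tested members called lower and 1 higher. The lower calls in that group were 4 to 7 when any 1 library was left out, fewest without shRNA1 replicate 1. *TNRC6B* and *TNRC6A*, scaffold proteins of the silencing complex, were at −0.34 and −0.29. Removal of the length trend left 3 members lower and none higher, *TNRC6A* still called at −0.17 and *TNRC6B* not called at −0.08.

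**Figure D5:**
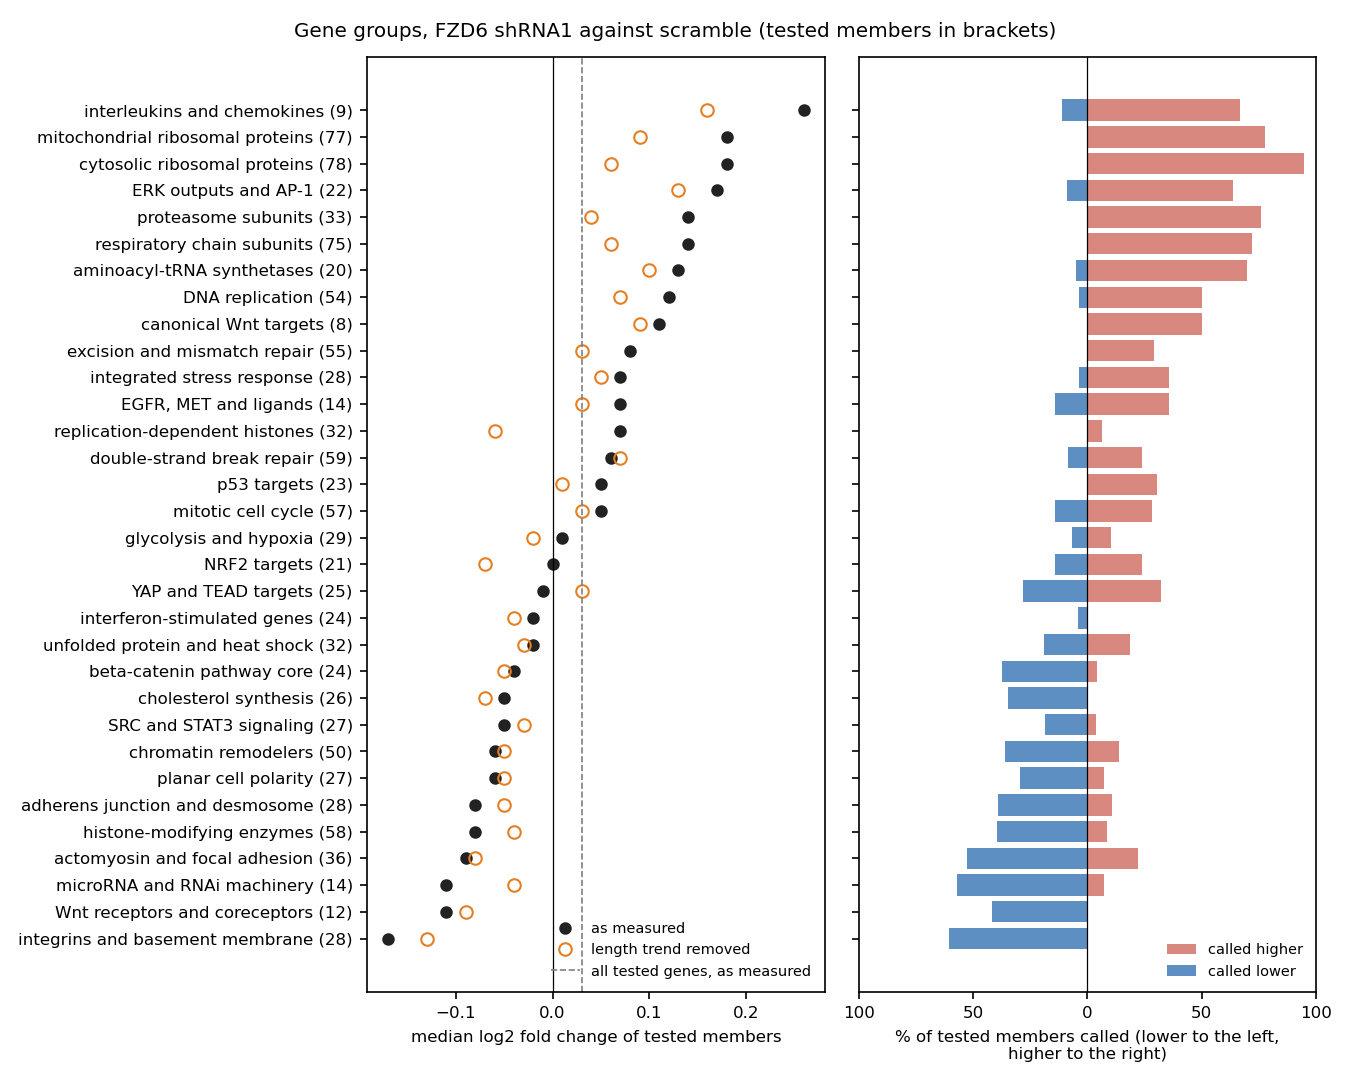
Left, median log2 fold change of the tested members of 32 gene groups as measured (filled points) and with the length trend removed (open points), with the median of all tested genes, 0.03, as a dashed line. Right, percentage of tested members called higher (to the right) or lower (to the left). Over all tested genes 18.2% were called higher and 10.6% lower. Groups with only higher calls include those of ribosomal proteins, the respiratory chain, the proteasome and excision and mismatch repair. Groups with only lower calls include those of integrins and basement membrane and of cholesterol synthesis.

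Transcripts that could pair with the seed of shRNA1 were examined next. The seed, guide positions 2 to 8, pairs with the 7 bases GTATTAT, which were searched on the sense strand of annotated 3′ UTRs. They occur in 1306 of the 10891 tested genes with an annotated 3′ UTR (12%), including 4 of the genes with the largest falls. Their sites are shown in GRCh38 with 10 bases on either side, 5′ to 3′ on the strand of the gene, with the 7 bases in capitals, to show where a match lies; these 4 were taken from genes that fell, and 141 genes with a match were called higher.
*LRP1*, chr12:57212714-57212740, plus strand, exon 89 of 89: agcgagcacaGTATTATttctccatcc
*ATP11A*, chr13:112886400-112886426, plus strand, exon 29 of 29: tttaatgttaGTATTATttatttgaca
*HERC2*, chr15:28111327-28111353, minus strand, exon 93 of 93: gtaacaaatcGTATTATaaatatttca
*DST*, chr6:56458088-56458114, minus strand, exon 84 of 84: tcatgttctgGTATTATatctatctat

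Genes with the seed match had a median log2 fold change of −0.01, against 0.03 for the 9585 genes without it. Of those with a match 16.2% were called lower, against 11% of those without. Genes with a match also had longer 3′ UTRs, with a median of 2648 bases against 805. After removal of the length trend the medians were 0.02 and 0.00, and 8.96% and 10.1% were called lower. The seed of the scramble hairpin had a match in 443 genes, with a median 3′ UTR of 1742 bases against 905 without. Of the 443, 21.4% were called lower against 11.2% of those without, and 16.5% against 9.68% with the length trend removed. Called higher were 8.35% against 19.9%, and for the shRNA1 seed 10.8% against 20.6%. The scramble hairpin was in the control libraries, where lowering by its seed would appear as a rise with shRNA1. Its seed is therefore not a neutral comparison. Pairing that ran further than the seed was rare. Apart from *FZD6*, 5 genes paired from position 2 through position 12, namely *C1GALT1*, *PPP1R12A*, *PTCH1*, *SNX13* and *TNRC6B*, and 2 of them were called lower. The longest run outside *FZD6* was 14 bases in *SNX13*, whose log2 fold change was 0.13 and which was not called.

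Genes without a protein-coding accession made up 183 of the called genes, 129 higher and 54 lower. Among all called genes 97 were annotated as long noncoding RNAs, 74 higher and 23 lower, and 13 as ribosomal RNA. The 18S ribosomal RNA entry *RNA18SN5* was at 255, 259 and 267 FPKM in the controls and at 61.1, 52.8 and 72.5 FPKM with shRNA1, a log2 fold change of −2.06 (adjusted p = 0.00144, limma), and *RNA18SN3* was at −2.07. The 28S entry *RNA28SN2* was at 341, 360 and 394 FPKM in the controls and at 87.1, 70.8 and 139 FPKM with shRNA1. These entries are near-identical copies, so reads could be split between them and single values are uncertain. The share of ribosomal RNA in each preparation was not measured apart from these entries. The short entries *MIR8072* and *MIR4492* were listed at 114, 134 and 113 FPKM and at 73.4, 31.8 and 74.8 FPKM with shRNA1, and at or next to 0 in the controls. They rest on at most 2.38 and 1.99 fragments per library, and *MIR4724*, the largest fall, on at most 0.722. *SNORA68*, a small nucleolar RNA, was at 0.73 on the log2 scale.

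The libraries carried the markers of the cell line. Keratins and other epithelial markers summed to 1.73e+03 to 1.77e+03 FPKM in the controls and to 1.82e+03 to 1.86e+03 FPKM with shRNA1. Of the 9 expressed, 4 were called higher (*KRT7*, *KRT18*, *KRT19* and *EPCAM*) and 3 lower (*CDH1*, *ELF3* and *CLDN4*), and 1 to 3 and 1 or 2 when any 1 library was left out, with 1 higher without shRNA1 replicate 3. No epithelial marker was called higher, and 3 were lower, both with the length trend removed and with quantile normalization. *KLK3* was at 0 in all 6 libraries, and luminal markers summed to 11.7 to 12.3 and 12.9 to 13.3 FPKM. Of 13 fibroblast and immune markers only *CD68*, a lysosomal protein, averaged at least 1 FPKM over the 6 libraries. *CD68* was called higher at 0.32. *CD14* averaged 1.11 FPKM in the controls and 0.735 FPKM with shRNA1, and was under the filter. *LUM*, *PTPRC* and *CD3E* were at 0. Neuroendocrine markers summed to 16.2 to 17.9 FPKM in the controls and to 15.4 to 16.2 FPKM with shRNA1, nearly all from 1 gene. In bulk RNA, fewer cells that express a gene and less of its RNA per cell cannot be told apart.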

How the data were processed

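Polyadenylated RNA of DU145 cells was sequenced by the authors from stranded libraries, and the reads were mapped with STAR. Per the labels and methods, the authors computed the deposited FPKM values with Cufflinks, per RefSeq transcript, with length and library size already divided out. Loci and labels are of the human build hg38, although the methods name mm10. Counts were not used, and no count test was run. FPKM of the 83497 entries were summed per gene through a RefSeq gene table of GRCh38 (595 of 73240 accessions unmatched), and 33 genes with an entry that Cufflinks marked as unusable in a library were left out. Genes averaging 1 FPKM or more across the 6 libraries were tested on log2(FPKM + 1) by limma 3.58.1 (R 4.3.3) with a mean-variance trend, Benjamini-Hochberg adjustment over all 12470 genes and a threshold of 0.05. The study's criteria were applied to the same values.

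Depth was estimated from the deposited confidence bounds as 33.1 to 38.1 M fragments in the scramble libraries and 33.9 to 39.8 M with shRNA1. Lengths and 3′ UTRs came from GENCODE v29 (length for 96.7% of tested genes), and the length trend was fitted by lowess (span 0.3) and removed from each library. In simulated data with 200 planted changes, limma found 52% at a log2 change of 0.26, 88.5% at 0.50 and 95% at 1.00. It also called 2, 8 and 9 genes without a planted change, and 0 genes with nothing planted. The simulated noise was independent between genes and libraries, without the differences by transcript length seen between the control libraries. The simulation therefore gives no rate of false calls for these data. Alternatives were a pseudocount of 0.1, no filter or 5 FPKM, centring, quantile normalization, no mean-variance trend, all 9 libraries in the fit, a replicate block, protein-coding accessions only, primary chromosomes only and leaving out each library. Same-numbered deviations of the groups correlated at −0.0546, 0.0857 and −0.0691, and differently numbered ones at −0.124 to 0.184. With 3 libraries per group these values cannot show whether libraries of the same number shared a culture or batch. The main fit therefore has no block, and fits with a replicate block are given beside it.

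Named genes are *FZD6*, those the paper names from its RNA-seq, the 15 largest called rises and falls with a coding accession, at least 3 FPKM in the higher group and no overlap between groups, up to 4 called members with the largest change in each list, and the 3 largest changes in each direction without a coding accession. A few others were named after their values were seen: the whole Wnt receptor list and single members of small counts. The comparison, the 32 gene lists and the 4 marker lists were chosen with earlier results of these data known. The sequence of the hairpin and the values of some members of the lists are not reported here.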

Additional observations from a re-analysis of the deposited data

How the results depend on the processing

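Under 18 alternatives *FZD6* kept its call and direction, with log2 fold changes from −1.05 to −0.94. The number of genes called by limma was 2262 with the length trend removed, 1006 with a replicate block and the length trend removed together, and 2030 to 2853 when single libraries were left out. A replicate block alone gave 2778 calls, 1764 higher and 1014 lower. Whether the replicate numbers pair the samples is not known. The number called was 3691 with a pseudocount of 0.1, 2862 of 20838 genes with no filter and 3399 with a filter of 5 FPKM. It was 3373 after centring, 2917 with quantile normalization and 2511 with all 9 libraries. The split between higher and lower calls was 1129 and 1133 with the length trend removed and 473 and 533 with the block as well. The study's criteria selected 193 genes with the length trend removed. Members of the 32 lists called numbered 560, 324 with the length trend removed and 163 with the block as well. The difference of the seed-match medians was −0.04, 0.02 with the length trend removed, with or without the block, and −0.05 to −0.02 when single libraries were left out. Spearman's rho between length and fold change, −0.459, was −0.509 with a filter of 5 FPKM, −0.409 with quantile normalization, −0.523 with protein-coding accessions only, −0.474 to −0.406 when single libraries were left out and 0.0297 with the length trend removed, with or without the block. The log2 fold change of *XPC* was −0.02 with protein-coding accessions only. The cause of these changes was not tested, except that removing a trend in length was built to bring rho near 0. Across 157 other named genes 2518 of 2792 values kept direction and call, 273 lost the call and 1 turned direction, and 80 of 154 called genes kept their call under every alternative. The depth and the 3 libraries per group limit what can be seen of changes below 1.2-fold.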

Other observations

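Transcripts that host small nucleolar RNAs, a group chosen after their values were seen, were called higher in 16 of 26 tested members and lower in none, at a median log2 fold change of 0.23, against 0.03 over all tested genes. Most of them are long noncoding RNAs whose introns are cut into small nucleolar RNAs, which guide the modification of ribosomal RNA. *SNHG1* was at 87.5, 85.2 and 83.7 FPKM in the controls and at 128, 132 and 129 FPKM with shRNA1, a log2 fold change of 0.60 (adjusted p = 0.000744, limma). *GAS5* was at 263, 264 and 287 FPKM in the controls and at 379, 385 and 388 FPKM with shRNA1, a log2 fold change of 0.50. In both genes all shRNA1 libraries were above all control libraries. *SNHG15* was at 0.50 and *SNHG12* at 0.57, the latter with a call that was lost without scramble replicate 2 or shRNA1 replicate 3 (largest adjusted p = 0.0546). After removal of the length trend 8 members were higher and none lower, at a median of 0.10.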
